A study of Mus musculus with 12 samples.

Results

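Pigment cell genes, 8 in number, were read on each of 12 arrays made from whole mouse corneas, as transcripts of a tissue that borders the clear cornea. They are Tyr, Tyrp1, Dct, Mlana, Slc45a2, Oca2, Mitf and Kit. A gene's level is the probe set with the highest mean over the 12 arrays among those that the platform table pairs with that symbol alone. Together these 8 genes have 15 such probe sets, out of 18194 genes and 45101 probe sets in all, and all 8 passed the filter on dim probe sets. Values are intensity units as deposited, whose trimmed mean is 100 on every array.

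The intact corneas came from C57BL/6J mice of 4 genotypes with 2 arrays each: wild type (WT), Dscr-1-/- (Dscr1KO), ApoE-/- (ApoeKO) and the double null (double KO). Dscr1 is the older name of Rcan1, whose protein binds and regulates calcineurin, a phosphatase, while Apoe encodes an apolipoprotein that carries lipids. The 4 sutured corneas had 1 array each, namely WT and Dscr1KO at day 5 and WT and the Dscr-1 transgenic (Tg) at day 7 after suturing. The sources used here do not give the promoter of the transgene, nor age or sex. All animals carried the same C57BL/6J background in the labels, and the intact arrays of a genotype are labelled as biological replicates. The design text ties the RNA to single mice, without saying whether 1 cornea or both were taken.

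The clear cornea has few pigment cells, while the iris, ciliary body, retinal pigment epithelium and the rim of the cornea towards the conjunctiva hold many. In a pigment cell the enzymes tyrosinase (Tyr), tyrosinase-related protein 1 (Tyrp1) and dopachrome tautomerase (Dct) make melanin inside organelles called melanosomes. Mlana is a melanosome membrane protein, and the transporters encoded by Slc45a2 and Oca2 keep the melanosome interior fit for melanin synthesis. Mitf is the transcription factor that switches on many of these genes through a short DNA element, and Kit is the receptor for Kit ligand, on which melanocytes and mast cells depend. Tyr, Tyrp1, Dct, Mlana, Slc45a2 and Oca2, the 6 melanosome genes below, mark pigment cells wherever they lie. Mitf and Kit are also used by mast cells. None of the 8 separates the iris from the other pigmented tissues of the eye.

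A core of that element, the M-box, stands in the 250 bases before the start site of all 3 enzyme genes. These windows before the RefSeq starts (build GRCm38.p6) are shown with the core, TCATGTGCT, in capitals, because the results open with their genes. Tyrp1 is on the + strand at chr4:80833963-80834212, Tyr on the - strand at chr7:87493513-87493762 and Dct on the - strand at chr14:118052247-118052496. All are written 5′ to 3′ on the strand of the gene.
Tyrp1: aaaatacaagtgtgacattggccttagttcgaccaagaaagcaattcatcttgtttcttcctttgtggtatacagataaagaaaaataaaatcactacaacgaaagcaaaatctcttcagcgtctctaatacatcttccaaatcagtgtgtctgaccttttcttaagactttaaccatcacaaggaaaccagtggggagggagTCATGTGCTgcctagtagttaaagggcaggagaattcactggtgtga
Tyr: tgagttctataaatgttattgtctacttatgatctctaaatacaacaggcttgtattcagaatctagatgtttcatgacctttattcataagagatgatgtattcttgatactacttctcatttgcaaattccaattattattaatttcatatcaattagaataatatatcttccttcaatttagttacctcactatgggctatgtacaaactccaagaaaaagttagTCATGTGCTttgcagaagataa
Dct: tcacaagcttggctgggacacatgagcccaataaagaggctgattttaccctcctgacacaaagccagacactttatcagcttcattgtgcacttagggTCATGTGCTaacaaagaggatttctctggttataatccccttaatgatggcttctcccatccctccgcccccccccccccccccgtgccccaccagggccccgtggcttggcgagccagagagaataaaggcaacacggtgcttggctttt
Counting the base before the start as -1, the core lay at -47 to -39 in Tyrp1, -22 to -14 in Tyr and -151 to -143 in Dct. Searched on both strands, the same letters occurred in 110 of 32851 windows of this length, or 0.335%. The shorter E-box CATGTG, which the core contains, occurred in 12.3% of windows and CACGTG in 6.02%.

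For comparison, the window before Oca2 is shown, a melanosome gene without the core, with its only CATGTG, which lies on the opposite strand and so reads CACATG, in capitals. It is on the + strand at chr7:56239509-56239758. Also shown is the window before the most downstream of the 3 Mitf starts in the table, the start known for the melanocyte form, on the + strand at chr6:97991533-97991782, with the cyclic AMP response element TGACGTCA in capitals.
Oca2: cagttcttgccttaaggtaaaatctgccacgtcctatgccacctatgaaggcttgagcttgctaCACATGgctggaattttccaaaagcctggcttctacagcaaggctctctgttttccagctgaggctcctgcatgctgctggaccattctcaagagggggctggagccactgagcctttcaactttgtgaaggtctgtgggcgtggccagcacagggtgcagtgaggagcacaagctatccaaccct
Mitf: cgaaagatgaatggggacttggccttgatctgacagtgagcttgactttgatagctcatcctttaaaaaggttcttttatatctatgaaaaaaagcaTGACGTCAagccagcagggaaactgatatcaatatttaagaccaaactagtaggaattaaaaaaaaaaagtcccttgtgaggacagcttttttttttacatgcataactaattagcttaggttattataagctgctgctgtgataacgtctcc
The response element lay at -153 to -146 in that Mitf window and occurred in 1.55% of all windows on either strand. Of the 8 genes, 6 had an entry in the table, and Mlana and Slc45a2 had none. These matches describe letters only. The sources used here do not say which Mitf transcripts the probe set reads.

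Before the results, the libraries themselves were read. Array medians lay between 15.6 and 21.1 intensity units. The library labelled ApoeKO replicate 1 read 849.3 for Apoe against 7.5 in replicate 2. The library labelled Dscr1KO replicate 2 carries ApoE-/- in its source label and Dscr-1-/- in its title and genotype, and read 316.8 for Apoe against 1272 in replicate 1. Rcan1 read 331.7 to 477.5 in the 4 intact arrays labelled without Dscr1 and 581.3 to 668.2 in the 4 with it. Among sutured arrays it read 479.1 in Dscr1KO, 663.6 and 579.7 in WT, and 548.3 in the library labelled Dscr-1 Tg, which is not above WT and so does not bear out that label. Whether the probe set reads the transgene is not known here, and below the Tg array means the library so labelled. Xist, an RNA of the inactive X chromosome, read 4104 or more in both ApoeKO, both Dscr1KO and the first double KO array, and 19.6 or less on the other 7 arrays. Eif2s3y, a gene of the Y chromosome, read 9 or less on the arrays with high Xist and 521.5 or more on those 7. By these genes the arrays with high Xist read as female and the 7 as male, so Xist level below also stands for sex. The corneal epithelial keratin gene Krt12 read between 5291.1 and 10080.3 on all 12 arrays.

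In intact corneas, the 3 melanin enzyme genes and Mlana read lower on all 4 arrays without Dscr1 than on all 4 arrays with it. Tyrp1 read 256.1 and 216.5 on the WT arrays, 207.7 and 256.5 on the ApoeKO arrays, 48.5 and 73.9 on the Dscr1KO arrays and 120.3 and 48.7 on the double KO arrays. The WT and ApoeKO arrays overlapped, and the highest array without Dscr1 was double KO replicate 1. Averaged over the Apoe labels, Tyrp1 fell by 1.73 ± 0.28 on the log2 scale (SE; 3.31-fold; limma with Benjamini-Hochberg adjustment, adjusted p = 0.00336), lower in 4 of 4 arrays. Log2 differences are of log2(intensity + 3.6) throughout, which understates changes of dim genes, and adjusted p-values are over 12706 genes. In a bulk sample, fewer cells of a type and less RNA per cell cannot be told apart.

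Dct, the tautomerase, read 364.3 and 285.6 on the WT arrays, 282 and 347.8 on the ApoeKO arrays, 102.5 and 149.5 on the Dscr1KO arrays and 211.3 and 83.6 on the double KO arrays. The 4 arrays without Dscr1 lay below the 4 with it, with double KO replicate 1 again the nearest. Dct fell by 1.28 ± 0.28 (adjusted p = 0.012, limma). Tyr, the rate-limiting enzyme, read 29.7 and 21.3 on the WT arrays, 21.8 and 15.1 on the ApoeKO arrays, 6 and 10.7 on the Dscr1KO arrays and 8.8 and 10.4 on the double KO arrays. Its groups did not overlap either, although all its values are dim, and it fell by 1.01 ± 0.26 (adjusted p = 0.0219, limma). Without WT replicate 1 the adjusted p of Tyr was 0.0947 and that of Dct 0.0535. Tyr also missed the threshold without WT replicate 2 (0.0559) and without ApoeKO replicate 1 (0.0871), and Dct without ApoeKO replicate 2 (0.0533).

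Mlana, the melanosome membrane protein gene, read 86.2 and 73.7 on the WT arrays, 67 and 72.9 on the ApoeKO arrays, 21.5 and 32.4 on the Dscr1KO arrays and 46.1 and 21.4 on the double KO arrays. It followed the same order of groups and fell by 1.27 ± 0.25 (adjusted p = 0.00799, limma). The transporter genes did not pass the test. Slc45a2 read 13.5 and 15 on the WT arrays, 12.1 and 13.1 on the ApoeKO arrays, 6.4 and 13.7 on the Dscr1KO arrays and 10.3 and 9.2 on the double KO arrays, a difference of -0.36 ± 0.27 (adjusted p = 0.337, limma). Oca2 read 14.4 and 13.8 on the WT arrays, 16 and 17.3 on the ApoeKO arrays, 12.9 and 13.2 on the Dscr1KO arrays and 23.9 and 10.5 on the double KO arrays. Its groups overlapped, with the highest value of the intact arrays in double KO replicate 1, and it differed by -0.06 ± 0.27 (adjusted p = 0.878, limma). Leaving out double KO replicate 2 turned the Oca2 difference to 0.18 ± 0.22. Both transporter genes were dim, and a p that misses the threshold does not show that they were equal.

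The regulator and the receptor moved apart from each other. Mitf read 20.2 and 23.5 on the WT arrays, 29.5 and 26.2 on the ApoeKO arrays, 86.7 and 45 on the Dscr1KO arrays and 141.8 and 94.7 on the double KO arrays. All 4 arrays without Dscr1 lay above all 4 with it, the reverse of the enzyme genes, and Mitf rose by 1.66 ± 0.24 (3.15-fold, adjusted p = 0.00229, limma). Kit read 860.5 and 873.5 on the WT arrays, 570.4 and 682.7 on the ApoeKO arrays, 274 and 66.2 on the Dscr1KO arrays and 148.4 and 90.2 on the double KO arrays. It fell by 2.52 ± 0.39 (5.73-fold, adjusted p = 0.00286, limma), the largest difference of the 8 genes. Mast cell genes were read because mast cells also use Mitf and Kit. Of 10 listed, 9 were measured and 4 tested. All 4 passed upwards, Hdc by 4.73, Cpa3 by 3.62, Cma1 by 2.76 and Gata2 by 1.43, where 16.3% of all genes rose. Hdc, Cpa3 and Cma1 read 12.6 or less on the intact arrays with Dscr1. They passed the filter, a mean over 12 arrays, through arrays where they read higher, so the filter shaped this count. Among genes not tested, Tpsb2, Tpsab1 and Mcpt4 overlapped between intact arrays with and without Dscr1, while Fcer1a and Ms4a2 did not. The summed intensity of the 9 genes ran from 40.9 to 58.2 with Dscr1 and from 303.8 to 740.6 without it. The part of mast cells in the Mitf difference was not tested.

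**Figure D1:**
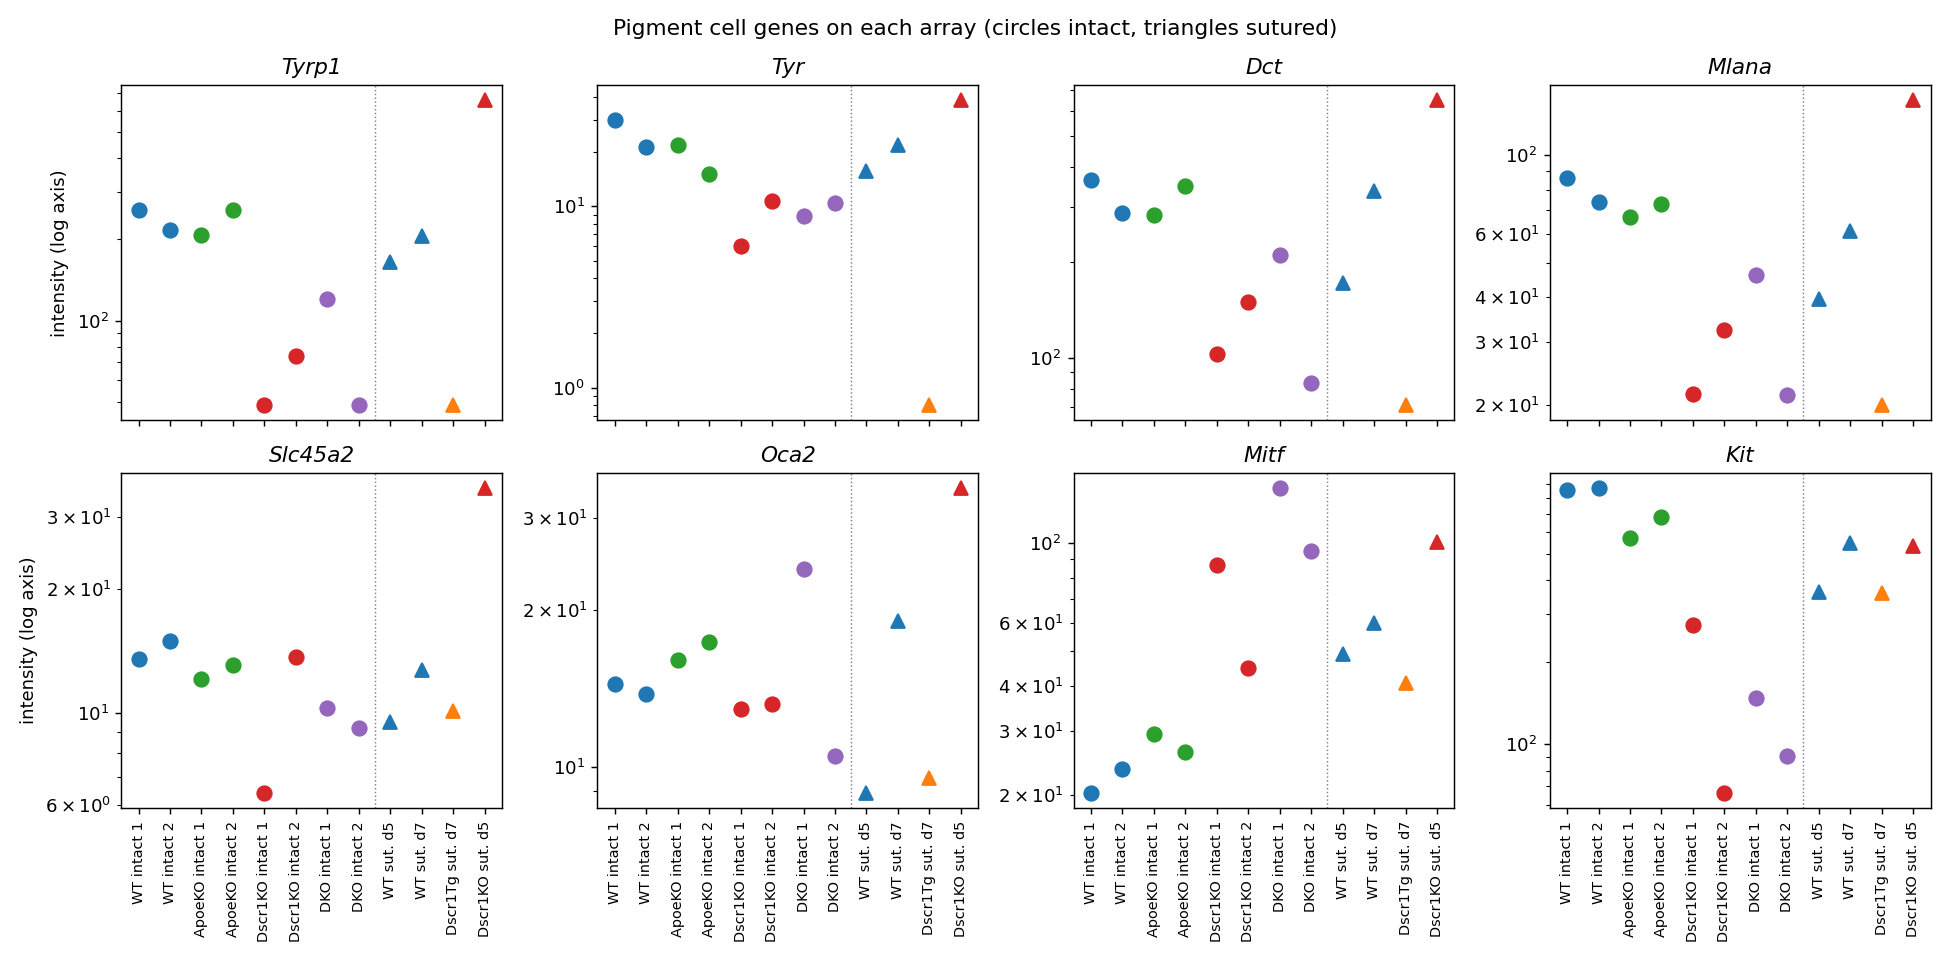
Intensity of each gene (y axis, log scale, separate range for each panel) on the 12 arrays (x axis); 1 point is 1 array, circles are intact and triangles sutured corneas, and colours mark genotype. Tyrp1, Tyr, Dct, Mlana and Kit lie lower on the 4 intact arrays without Dscr1 than on the 4 with it, Mitf lies higher, and 6 of the 8 genes peak on the sutured Dscr1KO array.

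In the averaged comparison 5 of the 8 genes fell and 1 rose, where 31.7% of all genes tested were called, 15.4% falling and 16.3% rising. The same 6 genes had 4 arrays that did not overlap the other 4, and 17.8% of all genes lay wholly lower and 16.8% wholly higher in this way. The median difference of the 8 genes was -1.14, against -0.02 for all genes tested. The 5 intact arrays with high Xist, which hold 2 ApoeKO, 2 Dscr1KO and 1 double KO array, were also fitted alone. That fit had a term for Dscr1 and none for the Apoe label, so it was not averaged over that label. Tyrp1 then differed by -1.56 ± 0.38 (adjusted p = 0.0659, limma), Kit by -2.13 ± 0.53 (adjusted p = 0.0711) and Mitf by 1.45 ± 0.46 (adjusted p = 0.118), so that 0 genes of the 8 passed (6 in the fit of all 8 arrays), where 683 of 12706 genes did, against 4023 with all 8 arrays. Terms for Dscr1 and high Xist, again with none for the Apoe label, were fitted over all 8 intact arrays. Tyrp1 then differed by -1.79 and the same 6 genes passed. Without the libraries labelled ApoeKO replicate 1 and Dscr1KO replicate 2, 5 passed, and Tyr missed the threshold (adjusted p = 0.0654).

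The single Dscr1 knockout was first set against WT. Xist was high on both Dscr1KO arrays and low on both WT arrays, so genotype and Xist level cannot be told apart in this comparison. Tyrp1 fell by 1.91 ± 0.40 (adjusted p = 0.0219, limma), Mlana by 1.47 ± 0.36 (adjusted p = 0.0376) and Kit by 2.64 ± 0.56 (adjusted p = 0.0229), while Mitf rose by 1.38 ± 0.35 (adjusted p = 0.041). Tyr (-1.30) and Dct (-1.36) had adjusted p-values of 0.0599 and 0.0675. Thus 3 of 8 genes fell and 1 rose, where 3.9% of all genes fell and 7.86% rose (11.8% in all). The count was 0 without WT replicate 1 or 2, where the call over all genes dropped from 1495 to 347 and 265. It was 2 without ApoeKO replicate 1 or 2 (912 and 903 of all genes), with only these 4 arrays fitted (753), without a filter (1290 of 18194) and without Dscr1KO replicate 1, where 3863 of all genes were called.

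The double KO was set against WT and against ApoeKO. Against WT, Tyrp1 fell by 1.57 ± 0.40 (adjusted p = 0.0284, limma), Mlana fell by 1.24 ± 0.36 (adjusted p = 0.0453), Kit fell by 2.87 ± 0.56 (adjusted p = 0.0108), and Mitf rose by 2.23 ± 0.35 (adjusted p = 0.00462). This made 3 of 8 genes that fell and 1 that rose, against 8.74% and 11.4% of all genes (20.1% in all). Against ApoeKO, Tyrp1 fell by 1.54 ± 0.40 (adjusted p = 0.0317, limma), Kit by 2.39 ± 0.56 (adjusted p = 0.0223), and Mitf rose by 1.93 ± 0.35 (adjusted p = 0.00897), so that 2 of 8 genes fell and 1 rose, against 8.61% and 11.0% of all genes (19.6% in all). The comparisons share arrays, so they are not separate evidence. The count against WT was 1 without WT replicate 1 or 2 (936 and 700 of all genes, from 2555) or without double KO replicate 2 (2186), and 2 without ApoeKO replicate 1 or 2 (1827 and 1819). Leaving out Dscr1KO replicate 1 or 2 raised it to 6, with 3974 of all genes called each time. Against ApoeKO it was 0 without ApoeKO replicate 1 or 2 (801 and 520 of all genes, from 2493) and 1 without double KO replicate 2 (2099).

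Loss of Apoe by label was not accompanied by a call in any of the 8 genes. Xist was high on both ApoeKO arrays and low on both WT arrays, so Apoe label and Xist level cannot be told apart between these groups. The library labelled ApoeKO replicate 1 also read 849.3 for Apoe, against 1030.5 and 776.5 in intact WT. ApoeKO differed from WT by -0.03 ± 0.40 for Tyrp1, -0.04 ± 0.40 for Dct, -0.18 ± 0.36 for Mlana and -0.47 ± 0.56 for Kit (adjusted p = 1 for each, limma), where 0.0236% of all genes were called and 0 of the 8 had an unadjusted p under 0.05. Between double KO and Dscr1KO, Mitf differed by 0.85 ± 0.35 (adjusted p = 0.463, limma) and Tyrp1 by 0.34 ± 0.40 (adjusted p = 0.785), with 0 of the 8 called, 1 at an unadjusted p under 0.05 and 0.0236% of all genes called. The test of whether Dscr1 loss acted differently under the 2 Apoe labels passed for 0 of the 8 genes (0 at an unadjusted p under 0.05), and 0.00787% of all genes passed it.

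**Figure D2:**
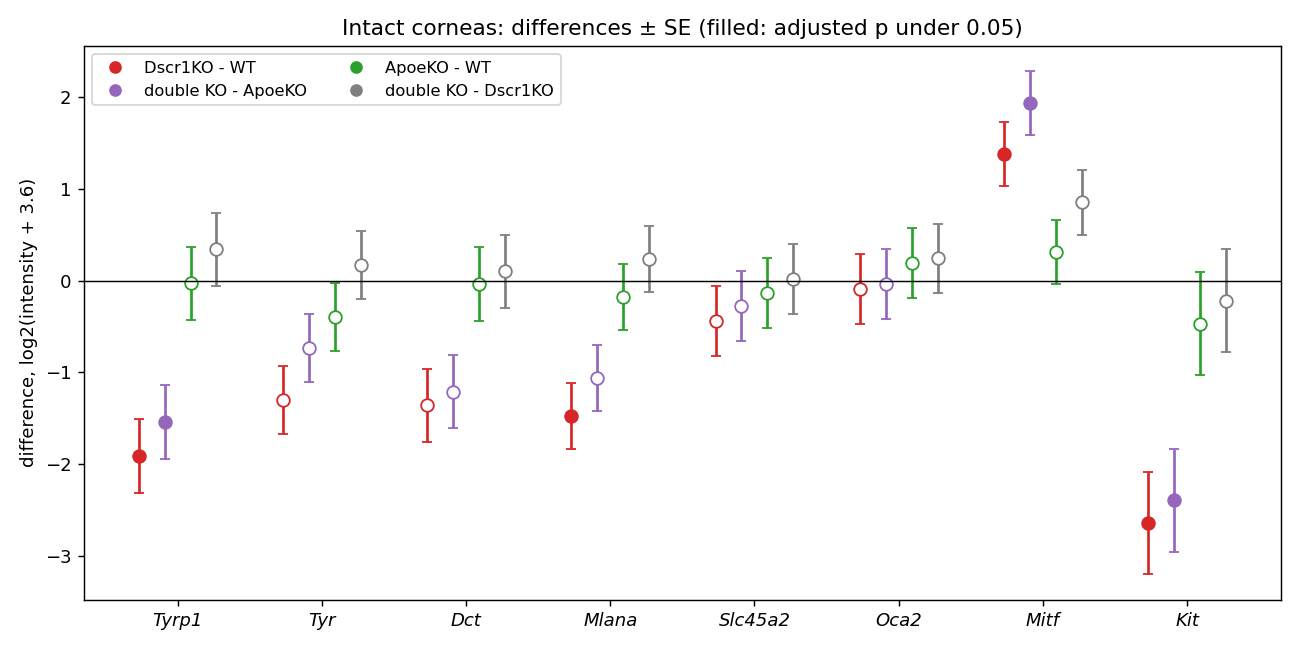
Differences between intact genotypes in log2(intensity + 3.6) (y axis) for each gene (x axis), with bars of 1 SE from the fit of all 8 intact arrays, filled where the adjusted p is under 0.05. Both comparisons of Dscr1 loss lie below 0 for Tyrp1, Tyr, Dct, Mlana and Kit and above 0 for Mitf, and both comparisons of Apoe labels have no filled point.

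Other probe sets of the same genes were compared. The other Tyrp1 probe sets differed by -1.56 ± 0.29 and -1.15 ± 0.22 in the averaged comparison, and the dimmer one of Kit by -0.96 ± 0.31. Of the other Tyr probe sets, both below the filter, one differed by -1.05 ± 0.28 and one by -0.02 ± 0.34. The second Mitf probe set, which read 11.3 or less on every array and is below the filter, differed by 0.44 ± 0.42, so the Mitf rise rests on 1 probe set.

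Among other genes of the pigment cell pathway, the changes went both ways. Of 21 listed genes, 20 were measured and 14 tested, and 4 rose and 3 fell in the averaged comparison, with a median of -0.01. Pmel, which forms the fibrils on which melanin is laid down, fell by 1.10 ± 0.20 (adjusted p = 0.00565, limma), from 130.2 to 178.1 with Dscr1 to 53.8 to 96.3 without it. Ednrb, the endothelin receptor of melanocyte precursors, fell by 1.82 ± 0.21 (adjusted p = 0.000768), reading 381 to 901.6 with Dscr1 and 96.9 to 251.4 without it. Myo5a, the motor that carries melanosomes, rose by 2.02 ± 0.28 (adjusted p = 0.00167). Sox10, a transcription factor of neural crest derivatives including melanocytes and Schwann cells, rose by 1.89 ± 0.39 (adjusted p = 0.00865), reading 12.6 or less with Dscr1 and 19.2 to 33.3 without it. Sox10 was dim with Dscr1 and passed the filter through arrays where it read higher, so its call is not free of the filter. Gpnmb, a glycoprotein of melanosomes that macrophages also make, rose by 1.44 ± 0.17 (adjusted p = 0.0009). Of 4 tested ligand genes of these receptors and their pathway, 0 passed, with Kitl, which encodes Kit ligand, at 0.10 ± 0.25 (adjusted p = 0.776) and Edn3, a ligand of Ednrb, at 0.30 ± 0.36 (adjusted p = 0.564).

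A sutured cornea held the highest value of the 12 arrays for 6 of the 8 genes. On the Dscr1KO array at day 5, Tyrp1 read 657.1, Dct 649.3, Mlana 142.2, Tyr 38.4, Slc45a2 35.2 and Oca2 34.2, each the highest of its gene. On the library labelled Dscr-1 Tg, at day 7, Dct read 70.9, Mlana 20 and Tyr 0.8, the lowest of the 12 for each, and Tyrp1 read 48.6, next to the lowest intact value of 48.5. The WT arrays lay between these, with Tyrp1 at 165.3 on day 5 and 206.8 on day 7, Dct at 172.3 and 336.8, Mlana at 39.7 and 61.2, and Tyr at 15.7 and 21.8. Each sutured group has 1 array, so these differences have no replicate check. The share of all genes with their highest value on the sutured Dscr1KO array was not computed, so 6 of 8 has no background.

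Set against WT of the same day, the sutured Dscr1KO array was 3.98-fold higher for Tyrp1, 3.77-fold for Dct, 3.58-fold for Mlana, 3.84-fold for Oca2, 3.71-fold for Slc45a2 and 2.45-fold for Tyr. The median of these 6 melanosome genes was 1.67 on the log2 scale, against 0.06 over all genes past the filter. The regulator and receptor differed less, Mitf by 2.05-fold (100.6 against 49) and Kit by 1.48-fold (535.5 against 361.2). The Tg array was lower than WT at day 7 for all 8 genes, 4.75-fold for Dct, 4.26-fold for Tyrp1, 3.06-fold for Mlana, 2-fold for Oca2 and 1.26-fold for Slc45a2. The median of the 6 melanosome genes was -1.73, against -0.07 over all genes past the filter. In the Tg array Mitf read 40.8 against 59.9 in WT, and Kit 359.4 against 547.9.

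**Figure D3:**
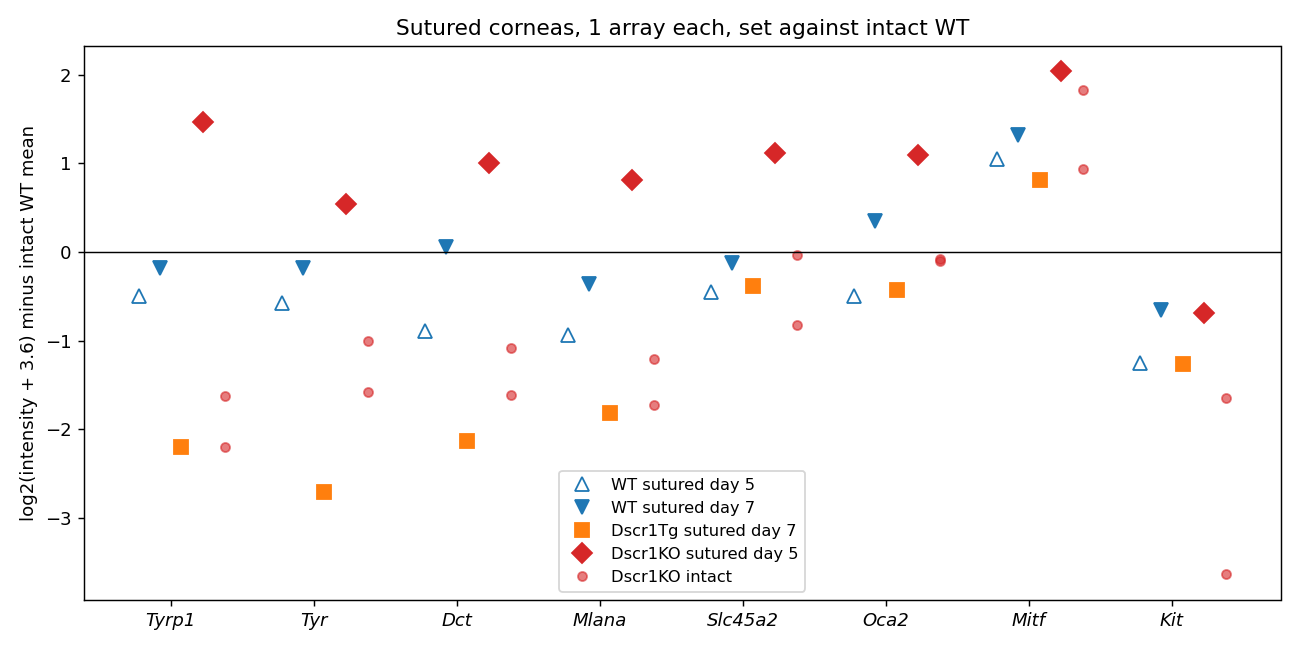
Distance of each sutured array, in log2(intensity + 3.6), from the mean of the 2 intact WT arrays (y axis, 0 is that mean) for each gene (x axis), with both intact Dscr1KO arrays as small circles. The sutured Dscr1KO array lies at 1.47 for Tyrp1 and 1 for Dct while the intact Dscr1KO arrays lie between -2.2 and -1.09 for both, and the Tg array lies at -2.2 and -2.13.

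Suturing was tested over 7 arrays of WT and Dscr1KO with genotype as a term, and 0 of the 8 genes passed, as did 0% of all genes (limma; 1251 of 12706 genes and 1 of the 8, Mitf, at an unadjusted p under 0.05). Mitf differed by 0.97 ± 0.27 (adjusted p = 0.413) and Tyrp1 by 1.15 ± 0.72 (adjusted p = 0.617). Tyrp1 ran opposite ways in the genotypes, so a fit with a term for suturing by Dscr1 genotype was added after these values were seen. Tyrp1 went from 256.1 and 216.5 to 165.3 and 206.8 with suturing in WT, and from 48.5 and 73.9 to 657.1 in Dscr1KO, a difference between genotypes of 3.72 ± 0.40 (adjusted p = 0.0239, limma). Of the 8 genes, 1 passed upwards and 0 downwards, against 0.0866% and 0.519% of all genes (0.606% in all), and Mlana (2.93 ± 0.48, adjusted p = 0.071), Dct (2.77 ± 0.56, adjusted p = 0.11) and Tyr (2.22, adjusted p = 0.179) did not. The Tyrp1 call was lost without WT intact replicate 1 (adjusted p = 0.114) or 2 (0.12), and without sutured WT at day 5 (0.095) or day 7 (0.0867), while its size stayed between 3.43 and 4.01. It rests on 1 sutured Dscr1KO array, whose spread is taken from the other groups. Xist was high in both intact Dscr1KO arrays and low in the sutured one and in all 4 WT arrays, so this difference and that of Xist level cannot be told apart. Genes of skin and conjunctiva moved the opposite way in the same test: 3 of 6 passed, Lor at -8.16, Krt10 at -4.63 and Krt4 at -3.91, and their part in the Tyrp1 result was not tested. Lor read 3.1 or less outside the intact arrays without Dscr1 and passed the filter through those arrays. Without Dscr1KO intact replicate 1 the same test called 4 of the 8 genes, but also 2169 of all genes in place of 77, and without replicate 2 it called 2 of the 8 and 288 of all.

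Across the 12 arrays, Tyrp1, Dct and Mlana kept nearly the same order. As a description over 12 arrays that fall into groups by Dscr1, Pearson's r of log2 values was 0.99 between Dct and Mlana, 0.98 between Tyrp1 and Mlana and 0.97 between Tyrp1 and Dct. Without the sutured Dscr1KO and Tg arrays, which hold the extremes, these were 0.98, 0.97 and 0.96. Tyr gave 0.86 to 0.88 with the 3 others. Slc45a2 and Oca2 gave 0.79 and 0.68 with Tyrp1, and 0.70 and 0.35 without those 2 arrays. Mitf gave -0.24 with Tyrp1 and -0.71 without those 2 arrays, and Kit gave 0.68 and 0.83.

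The genes most like the mean of the 6 melanosome genes over the 12 arrays, among those past the filter, were led by Pmel (Pearson's r of 0.98, Spearman's rho of 0.94). Pmel read 251.7 on the sutured Dscr1KO array, 45.9 on the Tg array and 172.7 and 178.1 in intact WT. Behind it came Mylk, which encodes myosin light chain kinase (0.89), Pcolce2 (0.88), Gm11944 (0.88), Kcnj13, a potassium channel gene of pigment epithelia (0.88), Car6 (0.87), Hic2 (0.87), the adhesion molecule gene Ncam1 (0.86), the VEGF receptor gene Kdr (0.86) and Tm7sf3 (0.85). Without the arrays at both extremes, r was 0.96 for Pmel, 0.83 for Kcnj13, 0.89 for Car6 and 0.67 for Kdr. Kcnj13 read 64.4 on the sutured Dscr1KO array, 12.9 to 27.6 on the intact arrays without Dscr1 and 28.8 to 38 on those with it.

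Genes of other ocular tissues were read on the same arrays, and their part in the pigment differences was not tested. The 6 melanosome genes summed to 606.6 to 764.2 in WT and ApoeKO, 183.8 to 420.7 in Dscr1KO and double KO, 159.9 in the Tg array and 1556.4 in the sutured Dscr1KO array. Double KO replicate 1, the highest intact array without Dscr1, also read 7507 for the sum of 14 photoreceptor genes, where the other intact arrays read 74 to 597.7. On that array Otx2 read 192.7, Rlbp1 118.3 and Ttr 336.1, genes listed here for the retinal pigment epithelium. Rpe65, the isomerase that defines that tissue, read 0.7. The sum of 9 other genes of neural retina was 1979.9 on it, where the other intact arrays read 56.6 to 79.4. Which tissue gave the Otx2 and Rlbp1 signal was not tested. Without that array, Tyrp1 fell by 2.04 ± 0.19 (adjusted p = 0.00152, limma) and Oca2 differed by -0.30 ± 0.22 (adjusted p = 0.346) in the averaged comparison.

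The sutured Dscr1KO array, which had the highest melanosome sum, read 63.7 for the photoreceptor genes, where the other arrays apart from double KO replicate 1 read 59.3 to 597.7. For 9 other genes of neural retina it read 59.5, where those arrays read 40.9 to 79.4. Its sum for 11 genes of retinal pigment epithelium was 872.8, of which Ttr, a thyroid hormone carrier, made up 726.2. Of the others, Rdh5 (28.7) read highest of the 12 arrays, close to 28.4 on double KO replicate 1. Rgr (20), Rlbp1 (17.7) and Otx2 (9.6) were second to double KO replicate 1. The rest lay inside the range of the other arrays. Best1 read 11.7 against 2.4 to 35.8 elsewhere, Rpe65 2.1 against 0.3 to 3.9 and Stra6 6.2 against 4.7 to 16.1. Lrat read 9.9 against 0.6 to 17, Rrh 23.4 against 3.5 to 34.5 and Slc16a8 17.3 against 3.5 to 18.9. S100b, listed for Schwann cells and nerve, read 113.8 on that array and 33.4 or less on the other 11.

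Lens genes fell with the pigment genes in the averaged comparison, 14 of 16, where 15.4% of all genes tested fell, but parted from them on single arrays. The sum of 16 lens genes was 16053.7 and 11557.5 in intact WT but 2203.3 and 1645.7 in ApoeKO, whose melanosome sums were close to WT. It was 1489.5 in the sutured Dscr1KO array, whose melanosome sum was the highest. On sutured WT it was 1682.9 at day 5 and 9978.3 at day 7, so lens sums varied widely within WT too. Of 10 iris and smooth muscle genes, 7 were tested and 3 rose in the averaged comparison, Smtn by 1.14, Tagln by 1.04 and Synm by 0.85, where 4 of the 6 melanosome genes fell. Their sum was 1297.3 on the sutured Dscr1KO array, but also 1379.5 on Dscr1KO replicate 2 and 1207.6 on sutured WT at day 7, where the melanosome sums were 293.4 and 658.3. Acta2 made up 929.7, 1171.3 and 932.4 of these 3 sums, in that order. It did not pass in the averaged comparison (0.76 ± 0.45, adjusted p = 0.231, limma). Cnn1, a marker of contractile smooth muscle, read 8.9 or less on all 12 arrays, and Des, of muscle, 25.2 or less.

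The ciliary epithelium is a pigmented and a clear layer behind the iris. Of 6 of its genes 5 were measured and 4 tested, and 1 fell (Npr3, a natriuretic peptide receptor gene, by 2.46 ± 0.50, adjusted p = 0.00849, limma) and 1 rose (Aqp4, a water channel gene, by 1.83 ± 0.53, adjusted p = 0.0346). Aqp4 read 7.6 or less on the intact arrays with Dscr1 and passed the filter through arrays where it read higher. The sum, of which Npr3 made up 337.1 of 370.6 on WT replicate 1, was 241.2 to 370.6 with Dscr1 and 46.6 to 182.5 without it, and 311.8 on the sutured Dscr1KO array against 163.7 on sutured WT at day 5 and 133.7 on the Tg array.

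Genes of skin and conjunctiva ran opposite to the melanosome genes in intact corneas. The sum of 6 such genes, all of which rose, was 1806.2 to 3035.3 with Dscr1 and 25883.3 to 28890.6 without it. Of these, Lor and Muc5ac read 7.5 or less on the intact arrays with Dscr1 and passed the filter through those without it. Among sutured arrays it was 9237.5 in Dscr1KO and 5104.6 to 5934.7 in the other 3. Corneal endothelial genes were lower beside the pigment genes: of 5 tested, 4 fell and 1 rose, and the sum was 4450.1 to 5959.6 with Dscr1 and 2268 to 3791.6 without it. It was 5918 on the sutured Dscr1KO array, 4606.5 and 4675.3 on sutured WT and 3812.3 on the Tg array. The sum of 6 corneal epithelial genes was 30719.9 to 41518 with Dscr1 and 24255.3 to 35928.3 without it, and 2 of the 6 fell, Pax6 by 1.18 ± 0.27 (adjusted p = 0.0135, limma) and Slurp1 by 1.5 ± 0.20 (adjusted p = 0.00161).

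**Figure D4:**
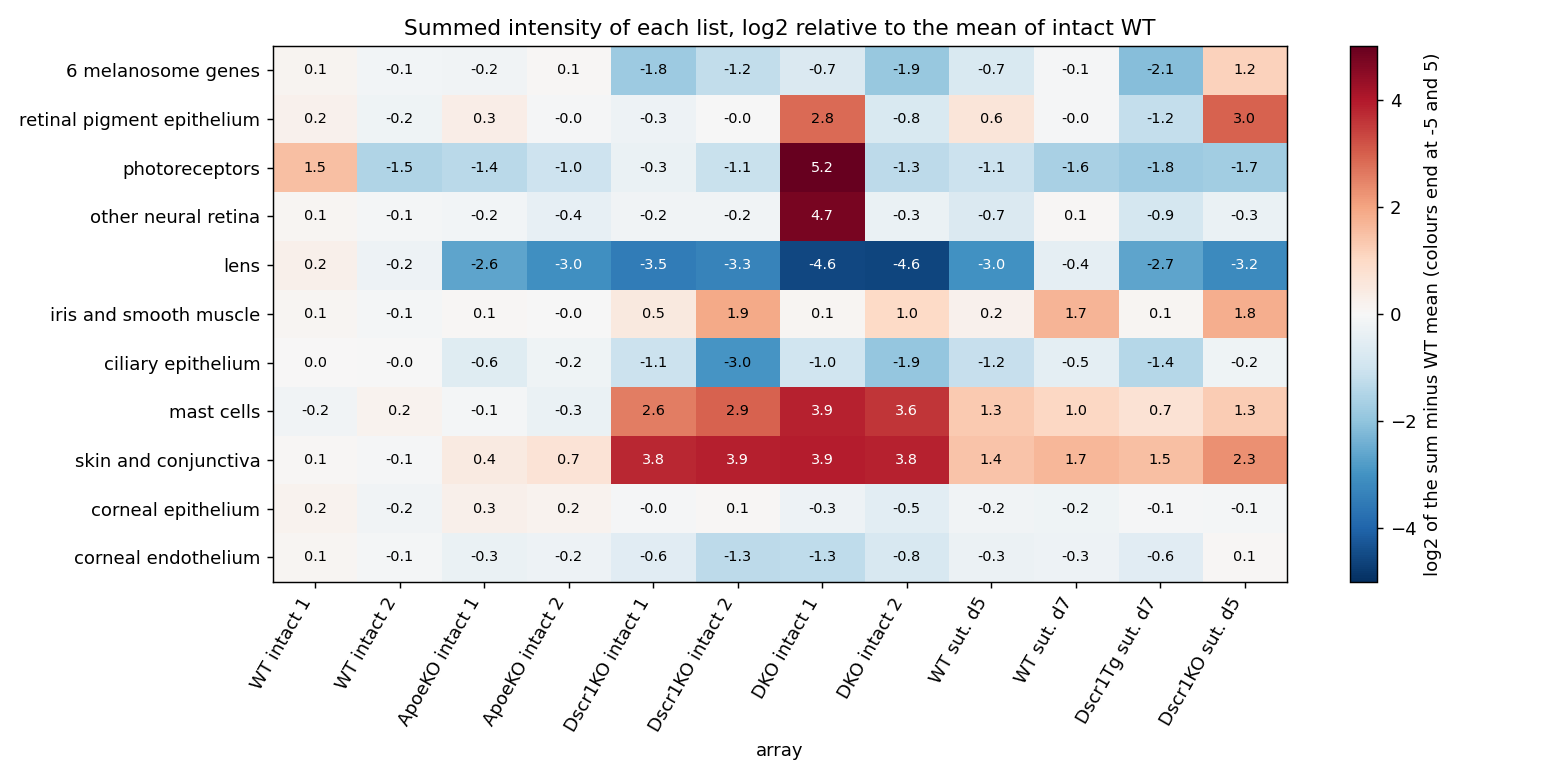
Summed intensity of the 6 melanosome genes and of 10 marker lists (rows) on each array (columns), as log2 of the sum minus the mean of the 2 intact WT arrays, printed in each cell. The melanosome row is lowest on the Tg array (-2.11) and highest on sutured Dscr1KO (1.17). The lens row is at -2.63 and -3.05 in ApoeKO, where the melanosome row is near 0, and at -3.02 on sutured WT at day 5. The photoreceptor row stands out on double KO replicate 1 (5.16).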

How the data were processed

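Whole-cornea RNA was measured on Affymetrix arrays, 12 in number. Per the labels' protocols, total RNA came from RNeasy preparation, and 100 ng of it was made into biotin-labelled cRNA. The authors deposited linear probe-set signals (unit intensity), which from the values have a mean of 100 on each array after trimming 2% at each end; the sources used here do not name the software. Their number limits the precision.

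The platform table gave 34958 probe sets 1 symbol, 932 several and 9211 none. The scale was log2(intensity + 3.6), with a pseudocount at the 20th percentile of all values. Dim genes, with a mean under the 40th percentile over probe sets, were left out, and limma 3.58.1 (R 4.3.3) was run on the other 12706 (1 coefficient per genotype over the 8 intact arrays, empirical Bayes with an intensity trend, Benjamini-Hochberg adjustment at 0.05 within a comparison). Suturing was fitted over 7 arrays. The fit was tested on simulated data. Promoter sequences are from RefSeq (GRCm38.p6). Plots used matplotlib 3.10.9 (python 3.11.15).

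The members and lists were chosen with earlier results of these data known. Named were all 8 members, up to 4 genes of a list with the largest differences past the threshold or brightest on an array described, and the 10 genes most like the mean of 6 members. Krt12, Rpe65, Rdh5, Best1, Cnn1, Des, S100b, Npr3, Aqp4, Kitl and Edn3 were named after their values were seen. So were Eif2s3y, Stra6, Lrat, Rrh, Slc16a8, Muc5ac, Tpsb2, Tpsab1, Mcpt4, Fcer1a and Ms4a2.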

Additional observations from a re-analysis of the deposited data

Results flagged for a closer look

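The effect of suturing on Tyrp1 differed between genotypes by 3.72 ± 0.40 on the log2 scale in the test of that difference (limma, adjusted p = 0.0239), with lower values in both sutured WT arrays than in both intact ones and a higher value in the sutured Dscr1KO array than in both intact ones. The Dscr1KO side has 1 sutured array, which is low in Xist where both intact ones are high, and all WT arrays are low, so the interaction and the Xist level cannot be told apart. The test was added after the Tyrp1 values were seen. Its call was lost when any 1 of the WT arrays was left out, while the size stayed between 3.43 and 4.01.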

How the results depend on the processing

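Among 18 member results past the threshold, 324 recomputations gave 253 on the same side, 71 that missed the threshold and 0 of the opposite sign. The count of called members in the averaged comparison was 4 to 6 with 1 array left out. With the filter at the 60th percentile it was 5 of the 5 members still tested. It was 0 in a fit of only the 5 intact arrays with high Xist (683 of all genes called, against 4023). This alternative was chosen after seeing the data, and it had a term for Dscr1 and none for the Apoe label. For Dscr1KO against WT the count of 4 became 2 without a filter, 2 with only the groups compared, 2 without ApoeKO replicate 1 and Dscr1KO replicate 2 together, and 0 to 5 with 1 array left out. With 1 array left out it was 1 to 6 for double KO against WT, 0 to 3 for double KO against ApoeKO, and 0 to 4 for suturing by genotype. For suturing, 1 member (Mitf, 1.19, adjusted p = 0.0499, limma) passed with only the WT arrays, as did 595 of all genes, against 0 and 0. Of the 7 other probe sets of the members, 3 read highest on the sutured Dscr1KO array, against 6 of the 8 chosen. The replicate block gave 3 called members for Dscr1KO against WT, 3 for double KO against WT, 3 for double KO against ApoeKO and 6 for the average; same-numbered arrays deviated together with a Pearson's r between -0.05 and 0.07 over genes, so the arrays share only a number and the design is not paired. Dim signals limit Tyr, Slc45a2 and Oca2.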
